A study of Mus musculus with 18 samples.

Results

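Polysome gradients of Dgcr8 knockout (KO) mouse embryonic stem cells were compared across genes, the high polysome fraction against the monosome fraction. The comparison used 6 of the 18 libraries of the series, 3 high polysome and 3 monosome libraries of genotype DGCR8 KO, paired by replicate number. The wild-type (WT) line was V6.5, the KO cells were a line made earlier whose parent is not given in the sources used here, and both were grown in serum with LIF and 2i (PD0325901 and CHIR99021). Both genotypes were treated with cycloheximide at 100 ug/ml for 2 min before lysis, which freezes ribosomes on the message. Each lysate was spun through a 10 to 50% sucrose gradient and cut into a monosome fraction, a low polysome fraction with 2 to 4 ribosomes and a high polysome fraction with 4 or more ribosomes. The other groups were the 3 low polysome libraries of the same KO gradients and the 9 libraries of 3 WT gradients. No source used here states whether the 3 gradients of a genotype came from separate cultures or clones, so p-values measure only the spread between these samples.

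A message held by many ribosomes sediments deep in the gradient, whereas a message with a single ribosome, or an RNA in a complex of similar size, sediments with the monosome. The ratio of high polysome to monosome reads of a gene is therefore used as its relative translation level. DGCR8 is the RNA-binding partner of the nuclease Drosha, and the pair cuts primary microRNA transcripts into hairpins, so cells without DGCR8 make almost no canonical microRNAs. MicroRNAs pair through their seed, the bases near their 5′ end, with sites in target messages and recruit Argonaute and TNRC6 proteins, which repress translation and shorten the life of the target. In mouse embryonic stem cells the most abundant of them come from the miR-290 cluster.

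Transcripts of the miR-290 cluster had far lower levels in high polysomes than in monosomes of these cells. The library kit reads the 3′ ends of polyadenylated RNA, so the counts at these genes are reads of longer transcripts over the hairpin and not mature microRNAs. 4 genes of the cluster passed the filter on low counts, and all 4 had a lower level in high polysomes. They lie within 2.22 kb on the plus strand of chromosome 7 and may be parts of 1 transcript, so they are not independent of each other. Their mature 3p sequences are shown because DGCR8 is needed to release them and their seeds set their targets, with bases 2 to 8 in capitals (RefSeq, GRCm38.p6).
miR-290a-3p: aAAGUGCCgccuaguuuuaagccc
miR-293-3p: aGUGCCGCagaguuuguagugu
miR-294-3p: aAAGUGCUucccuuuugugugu
miR-295-3p: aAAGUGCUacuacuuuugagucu
miR-294-3p and miR-295-3p share 1 seed, and miR-290a-3p shares their hexamer AAGUGC at bases 2 to 7 but not the whole seed. miR-293-3p has another seed. The Mir290a hairpin (chr7:3218626-3218708) had 53, 154 and 129 reads in the 3 KO monosome libraries and 2, 5 and 1 reads in the 3 high polysome libraries. Its log2 ratio was -5.83 ± 0.54 (SE, adjusted p = 3.56e-13), the lowest of the named genes. Mir294 (chr7:3220641-3220724) had 81.2, 136 and 145 CPM (counts scaled to the library total times its TMM factor) in monosomes and 4.30, 6.52 and 5.06 CPM in high polysomes. Mir295 (chr7:3220773-3220841) had 103, 172 and 132 CPM against 5.29, 5.90 and 5.75 CPM. The fractions did not overlap at any of these genes. The log2 ratio was -4.49 at Mir294, -4.54 at Mir295 and -4.57 at Mir293 (chr7:3220343-3220422). Mir293 had only 5, 3 and 3 reads in the KO high polysome libraries. In WT gradients these genes were lower in high polysomes too. Each had 0 to 3 reads in every WT high polysome library and 8 to 71 reads in every WT monosome library. No ratio is given where every library of a fraction had 3 reads or fewer, so none is given for WT.

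Dgcr8 was checked first in every library. Its level in KO cells was 47.2, 52.0 and 51.3 CPM in monosomes, 39.0, 58.6 and 42.0 CPM in low polysomes and 14.6, 22.99 and 8.73 CPM in high polysomes. In WT cells it was 76.3, 68.4 and 79.6 CPM in monosomes, 51.8, 70.0 and 66.5 CPM in low polysomes and 26.1, 27.4 and 29.6 CPM in high polysomes. Monosome and high polysome levels were lower in KO than in WT without overlap, but 3′ reads of Dgcr8 remained in every KO library, and since the sources used here do not state which part of the gene was removed, 3′ reads cannot check the label. The translation level of Dgcr8 was -1.77 ± 0.20 in KO (adjusted p = 6.65e-11) and -1.43 in WT, and the difference between them did not pass the test (adjusted p = 0.35). Total counts ran from 1707918 to 2436888 in the KO monosome libraries and from 3352066 to 4984833 in the KO high polysome libraries, so the monosome side is the shallower one. All 8 embryonic stem cell markers had counts in the 6 libraries, with a summed level of 2360 to 2622 CPM in monosomes and 2722 to 2847 CPM in high polysomes. Markers of fibroblast feeders summed to at most 12.5 CPM, with Dcn at 0, and markers of primitive endoderm summed to at most 7.02 CPM, with Cubn at 0. In bulk samples fewer cells of a type and less RNA per cell cannot be told apart.

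Across 12851 tested genes, KO cells had a wide range of translation levels. The middle 50% of genes spanned 3.58-fold, and the lowest and highest 1% were 78.0-fold apart. A gene was called when its adjusted p was under 0.05 (limma-voom, Benjamini-Hochberg, with the gradient as a block) and its log2 ratio was beyond 1 in either direction. By this rule 5510 genes (42.9% of those tested) differed between high polysome and monosome, 2225 higher (17.3%) and 3285 lower (25.6%) in the high polysome. When TMM factors were replaced by total counts the split was 1538 higher and 3938 lower, because that scaling moved the median of all genes from -0.08 to -0.33. In 2189 of the genes called higher and 3151 of those called lower the 3 high polysome libraries lay beyond the 3 monosome libraries, against 33% and 35.5% of all genes whose libraries did so in each direction. The calls rest on the same libraries, so this separation is not further evidence. The 3 gradients ranked genes alike, with Spearman rho of 0.852 to 0.872 between their ratios, and the median SD of a gene's log2 ratio over the 3 gradients was 0.30. In 443 called genes the high polysome libraries, and in 55 the monosome libraries, had no more than 3 counts each, and the fold of such a gene is not given here. Each library was scaled to its own effective size (its total times its TMM factor), so a ratio ranks genes against each other and does not give how much of a message lay in each fraction.

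**Figure D1:**
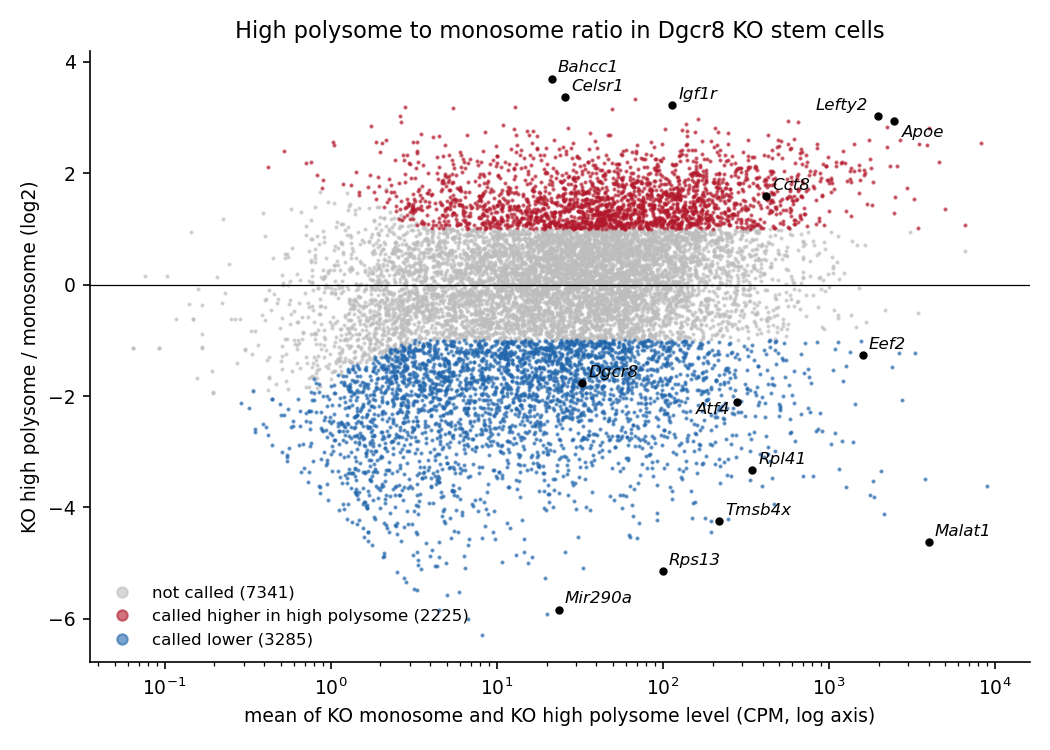
Log2 ratio of high polysome to monosome in KO cells (vertical axis) against the mean of both levels in CPM (horizontal log axis), 1 point per tested gene. The 2225 genes called higher are red, the 3285 called lower are blue, and labelled genes are described in the text. The lowest genes lie further from 0 than the highest ones.

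The protein-coding genes with the highest translation levels in KO cells included membrane receptors, secreted proteins and a chromatin protein. Bahcc1, a chromatin reader (chr11:120232947-120292296), rose from 2.22, 1.94 and 4.31 CPM in monosomes to 51.2, 31.1 and 37.9 CPM in high polysomes, a log2 ratio of 3.70 ± 0.38. Celsr1, an adhesion receptor of planar cell polarity (chr15:85898929-86033777), rose from 3.33, 3.88 and 5.48 CPM to 55.9, 44.1 and 42.3 CPM. These monosome values rest on 4 to 14 reads a library. The 12 highest genes were picked for having no overlap between fractions, so their separation is not further evidence. Igf1r, the receptor of insulin-like growth factor 1, had 17.8, 22.9 and 24.7 CPM in monosomes and 188, 191 and 238 CPM in high polysomes, a log2 ratio of 3.22 ± 0.17. Lefty2, a secreted inhibitor of Nodal signalling, was among the most abundant of these messages, with 488, 419 and 405 CPM in monosomes and 3479, 3716 and 3436 CPM in high polysomes (log2 ratio 3.02 ± 0.10, adjusted p = 3.99e-28). Apoe, a secreted lipid carrier, had 544, 553 and 595 CPM against 3420, 4764 and 4969 CPM (2.94 ± 0.10). At both genes every high polysome library lay above every monosome library, as the rule for picking them required. Others among the 12 highest were Pkd1, the large polycystin membrane protein (3.15), the secreted guidance cue Ntn1 (2.97), the mechanically gated channel Piezo1 (2.93), Atp6ap2, an accessory protein of the proton pump (2.91), the semaphorin receptor Plxna1 (2.88) and Pdia6, a protein disulphide isomerase of the endoplasmic reticulum (2.83).

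The lowest protein-coding genes included ribosomal proteins and thymosins. Rps13, a protein of the small ribosomal subunit (chr7:116331505-116334195), fell from 169.5, 238 and 176 CPM in monosomes to 8.27, 4.35 and 4.14 CPM in high polysomes, a log2 ratio of -5.15 ± 0.25 (adjusted p = 1.31e-22). Tmsb4x, the actin-binding peptide thymosin beta 4 (chrX:167207093-167209315), fell from 488, 441 and 324 CPM to 29.1, 23.9 and 14.2 CPM (-4.25 ± 0.15), and its relative Tmsb10 fell to a log2 ratio of -4.01. The coding sequences of Tmsb4x and Tmsb10 have 135 nt including the stop codon. Every monosome library of these genes lay above every high polysome library, as the rule for picking them required. Others among the 12 lowest were Cnpy1, a regulator of fibroblast growth factor signalling (-4.54), Usmg5, a small subunit of the ATP synthase (-4.19), Snhg11, a snoRNA host annotated as protein-coding (-4.10), the membrane adaptor Lime1 (-3.99), the signalling adaptor Dok2 (-3.96), the ribosomal protein paralog Rps27l (-3.94), the nuclear poly(A) binding protein Pabpn1 (-3.88) and the Y-linked Gm47283 (-4.44), whose near-identical copies make its count uncertain. Reads that mapped to more than 1 place were dropped by the authors, so the levels of ribosomal protein genes and of Gapdh (1.17 to 2.78 CPM in monosomes), which have processed pseudogenes, are also uncertain.

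**Figure D2:**
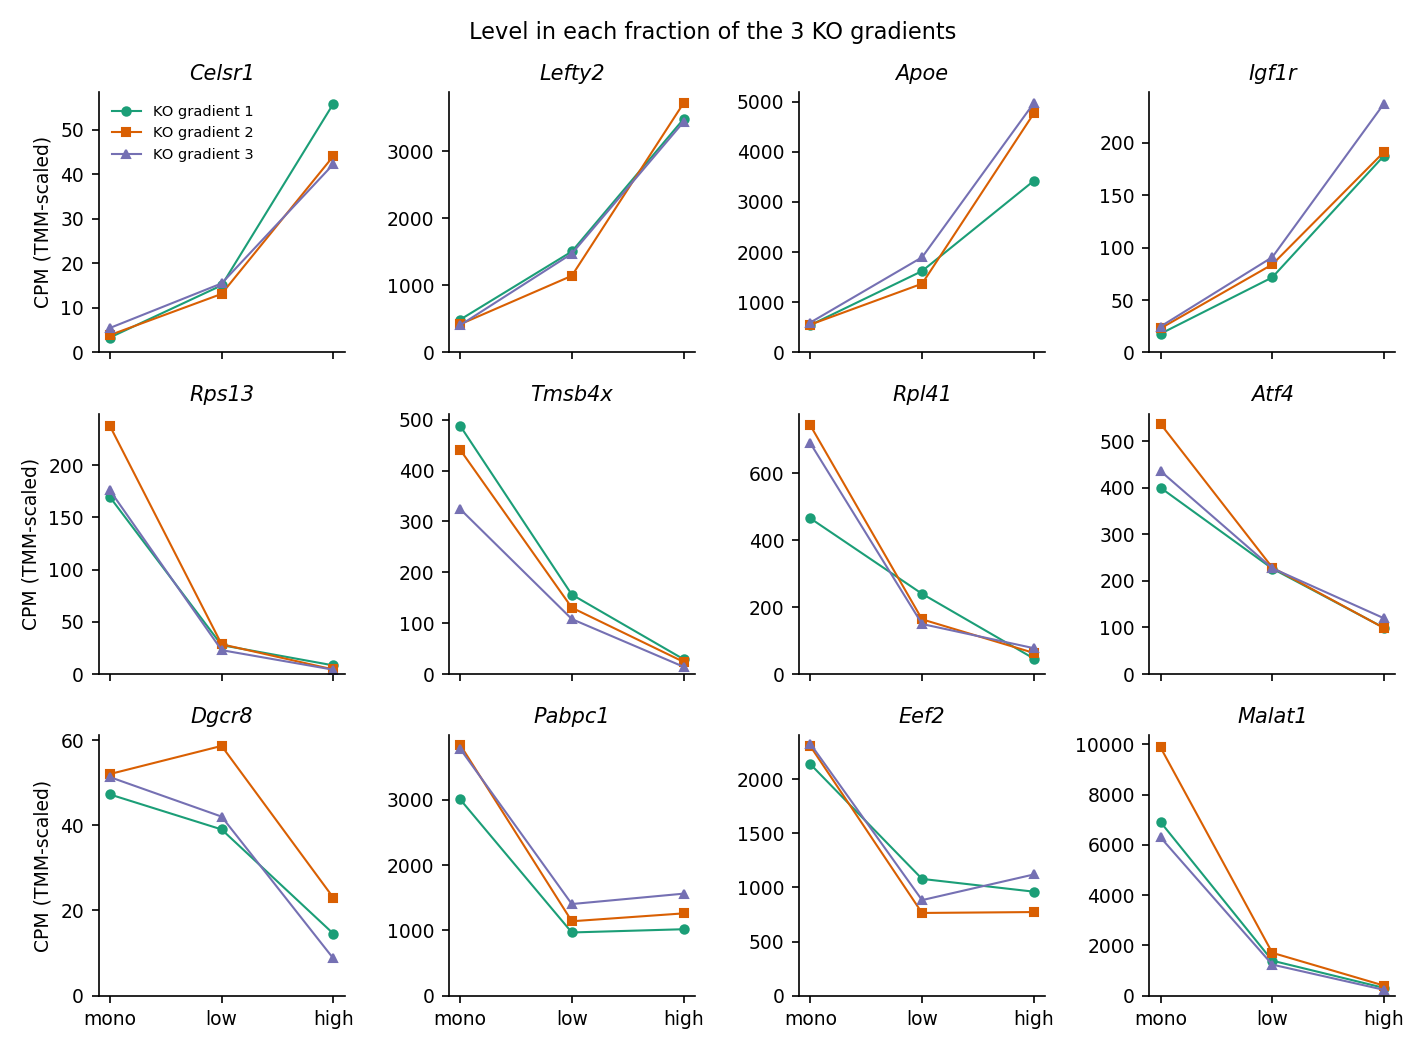
Level in CPM (vertical axes, starting at 0) of 12 genes in the monosome, low polysome and high polysome fractions, with a line for each of the 3 KO gradients. Celsr1, Lefty2, Apoe and Igf1r rose along each gradient, Rps13, Tmsb4x, Rpl41, Atf4 and Malat1 fell, and Pabpc1 and Eef2 were at about the same level in low and high polysomes.

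RNA classes that do not code for protein lay on the monosome side. Of 494 long noncoding RNAs (lncRNAs), 5 were called higher and 406 lower (82.2%, against 25.6% of all genes), and their median log2 ratio was -2.72, while that of 11766 protein-coding genes was 0.03. This gap of -2.76 was -0.75 when every gene with a count was kept. With the 210 lncRNAs that had no more than 3 counts in every library of a fraction set at the bound this floor gives, the median was -2.05. Malat1, a nuclear lncRNA (chr19:5795690-5802672), had 6910, 9881 and 6299 CPM in monosomes and 308, 399.5 and 231 CPM in high polysomes (-4.63 ± 0.10), and Neat1, the scaffold of paraspeckles, was at -4.18 ± 0.16. Tsix, the antisense partner of Xist, was at -5.09 and the host transcript Mir124a-1hg at -4.79. All 41 tested snoRNA genes had a log2 ratio below 0 and 35 were called lower, as were 14 of 19 microRNA genes and 189 of 316 processed pseudogenes. Of the 41 snoRNA genes 19 had no more than 3 counts in every library of a fraction. The 14 microRNA genes include the 4 of the miR-290 cluster. Since the kit reads polyadenylated RNA, snoRNA counts, like those at microRNA genes, may come from longer transcripts. Among transcripts outside the protein-coding class with a mean of 50 counts or more, the highest levels were those of Atp10d (2.26), Rps4l (2.04) and Cct6a (1.33), which carry the names of coding genes. The lncRNA class took in genes annotated as processed transcripts, so Cct6a is counted among its 5 higher genes. All 18 snoRNA host lncRNAs were called lower with a median of -3.66, from Snhg12 (-4.23) and Snhg14 (-4.14) to Epb41l4aos (-2.72) and Snhg9 (-2.68). Of 17 nuclear and stem cell lncRNAs 14 were called lower, and 0 were called higher, with Kcnq1ot1 at 0.22 ± 0.22 and Rian at -1.08. In WT the median of lncRNAs was -2.38.

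Translation levels in KO cells followed the length of the coding sequence. Protein-coding genes were put in 10 equal bins by coding length. In the bin with the shortest coding sequences (78 to 525 nt), 1 gene was called higher and 847 lower (72.0%), with a median log2 ratio of -1.75. In the bin with the longest (3417 nt and over) 483 were called higher and 23 lower (1.95%), with a median of 0.86. The median rose through the intermediate bins, from -0.58 in the second to 0.06 in the fourth, 0.22 in the sixth and 0.45 in the ninth, with a small drop at the seventh (0.18). Spearman rho between coding length and the ratio was 0.455, 0.387 and 0.485 in the 3 KO gradients and 0.088, 0.120 and 0.072 in the 3 WT gradients, each over 11763 genes. The KO and WT gradients did not overlap in this value, which is a description across genes and not a test. In WT the shortest bin had a median of -0.73 and the longest 0.25. The other features had weaker relations in KO gradients, with rho from 0.110 to 0.136 for 3′ UTR length, 0.008 to 0.019 for 5′ UTR length, -0.097 to -0.072 for the GC content of the coding sequence and -0.083 to -0.069 for the number of ATG triplets in the 5′ UTR.

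**Figure D3:**
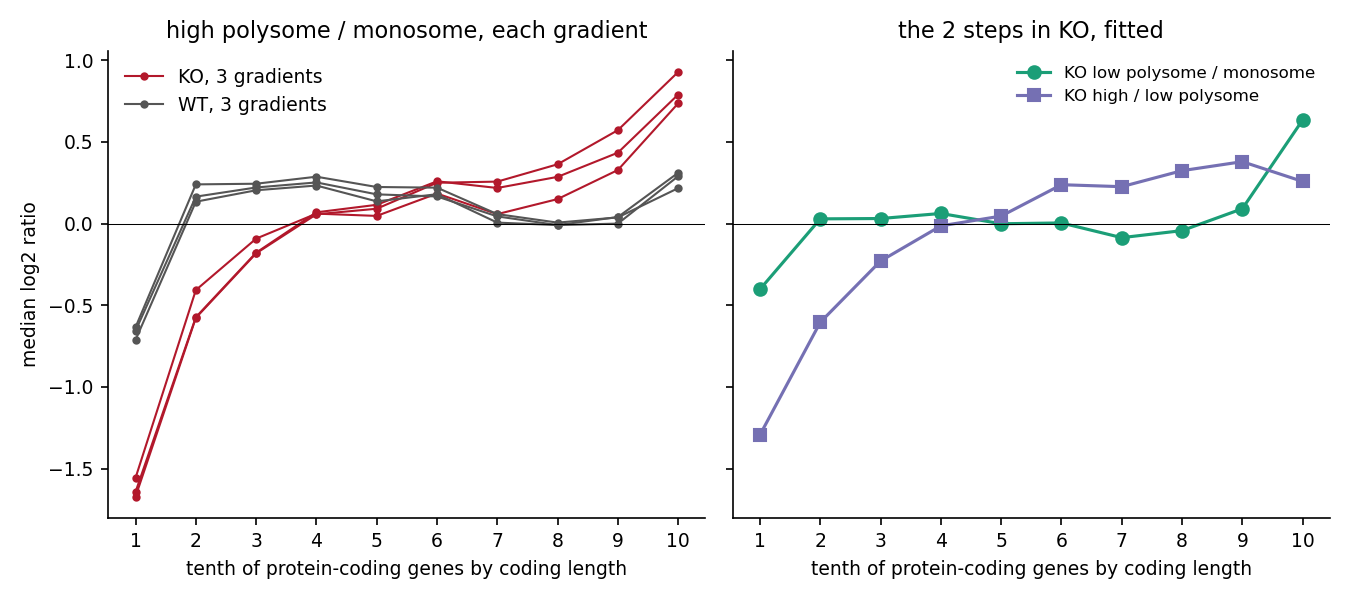
Median log2 ratio of protein-coding genes in 10 bins ordered by coding length (horizontal axis, 1 = shortest). The left panel shows high polysome to monosome in each KO gradient (red) and each WT gradient (grey), and the right panel shows the fitted KO steps from monosome to low polysome and from low to high polysome. The KO lines climb from about -1.6 to between 0.74 and 0.93, and the WT lines stay between -0.01 and 0.31 from the second bin on.

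The genes named for a list below are among the highest and lowest of its members with a mean of 50 counts or more, or belong to a set of known genes. The messages of the translation machinery were split. Cytosolic ribosomal proteins, which form the ribosome, were called lower in 68 of 80 genes and higher in 1 (median -1.99). Rpl41, with the shortest coding sequence of all tested genes at 78 nt (chr10:128548114-128549305), had 465, 743 and 689.8 CPM in monosomes and 46.3, 63.1 and 77.2 CPM in high polysomes (-3.33 ± 0.15). The exception was Rpl10l (1.26), a paralog of Rpl10, and the next highest was Rpl15 at -0.27. Of 18 other messages with a terminal oligopyrimidine (TOP) tract, which like ribosomal protein messages are controlled through mTOR, 4 were called lower and 1 higher (median -0.56). Pabpc1, the cytosolic poly(A) binding protein, had a log2 ratio of -1.48 ± 0.09, the elongation factor Eef2 had -1.26 ± 0.10 and Eef1a1 had -0.61 ± 0.11, whereas Eef1d, an exchange factor for the same elongation step, was at 1.74 and the initiation factor subunit Eif3l at 0.80. Tpt1, another TOP message, was at -2.81 on 2.30 to 20.6 CPM. Among 53 genes named for initiation factors 11 were called higher (20.8%, against 17.3% of all genes). The highest, neither of them an initiation factor, were Eif2ak3 (1.70), a kinase that phosphorylates such a factor, and Eif4a3 (1.64), an exon junction helicase. Another 8 were called lower (15.1%, against 25.6%), with Eif1 (-2.38) and Eif4a2 (-2.35) lowest by the rule used for named genes. The tRNA synthetases lay on the other side, with 11 of 23 called higher and 0 lower (median 0.93), from Gars (1.86) and Rars (1.69) to Farsa (0.53) and the synthetase-bound factor Eef1e1 (-0.72).

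Mitochondrial messages lay below the median of all genes (-0.08). All 7 tested messages of the mitochondrial genome, which are translated inside the organelle and not by the cytosolic ribosomes of the gradient, were called lower (median -3.34), from mt-Nd1 (-3.77) and mt-Nd4 (-3.64) to mt-Nd5 (-2.12) and mt-Nd6 (-2.69). Nuclear-encoded subunits of the respiratory chain were called lower in 48 of 82 and higher in 11 (median -1.30). Short subunits such as Cox7c (-3.70) and Cox8a (-3.61) of cytochrome oxidase were lowest, and Sdha (2.19), the catalytic subunit of complex II, and Atp5b (2.06), the catalytic subunit of the ATP synthase, were highest. Mitochondrial ribosomal proteins were called lower in 26 of 77 and higher in 6 (median -0.58), with Mrpl33 (-3.48) and Mrpl54 (-2.73) low and Mrps5 (1.24) and Mrps27 (1.18) high. The 6 calls of the higher kind were 0 when libraries were scaled by total counts.

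Other short proteins were low too. Of 18 thymosins, S100 proteins and cystatins 16 were called lower and 0 higher (median -2.32), and the least low were S100a11 (-0.33) and Cst3 (-0.55), which did not pass the fold threshold. Replication-dependent histones, whose messages end in a stem-loop and not in a poly(A) tail, were called lower in 17 of 32 (median -1.28). Hist1h4d was at -2.16 and Hist2h2ac at -1.72, while the linker histones Hist1h1e (-0.27) and Hist1h1c (-0.34) were not called. Since the kit primes on poly(A), the histone counts come from a part of these messages. Selenoproteins, which read a stop codon as selenocysteine, were called lower in 10 of 21 and higher in 4 (median -0.95). The glutathione peroxidases Gpx4 (-3.62) and Gpx1 (-3.49) were lowest and Selenoi (2.13) and Selenon (1.90) highest.

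The lists of proteasome subunits, chaperonin subunits and metabolic enzymes had high medians. Proteasome subunits were called higher in 24 of 38 and lower in 0 (63.2%, against 17.3% of all genes), with a median of 1.16. Psmd13, of the regulatory particle, had 139.5, 145 and 126 CPM in monosomes and 499.9, 478 and 552 CPM in high polysomes (1.89 ± 0.12), Psmd3 was at 1.82, and the lowest with a mean of 50 counts or more were Psmb10 (0.27) and Psma7 (0.28). The TRiC chaperonin, which folds actin and tubulin, was called higher in 5 of 8 (median 1.22), with Cct7 (1.88) and Cct8 (1.59) high and Cct2 (0.19) and Tcp1 (0.09) near 0. The values of Cct2 and Tcp1 turned negative with libraries scaled by total counts. Glycolytic enzymes were called higher in 9 of 16 and lower in 0 (median 1.12), from Ldha (1.97) and Aldoc (1.78) to Hk2 (0.42) and Eno3 (0.01). Enzymes of cholesterol synthesis and the LDL receptor were called higher in 12 of 21 and lower in 2 (median 1.05). The transcription factor of the pathway, Srebf2, had a log2 ratio of 2.58, and Insig1 (-1.02), which holds SREBP in the endoplasmic reticulum, and Mvk (-1.02) were just past the threshold on the lower side. With total counts the proteasome had 14 calls and the tRNA synthetases 6, all of them higher.

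Messages of the matrix, of chromatin enzymes and of membrane transporters were high as well. Extracellular matrix proteins had the highest median of the lists (1.54), with 20 of 27 called higher and 1 lower. The collagen chains Col18a1 (2.69) and Col9a2 (2.69) led them, and Lamb2 (1.35) and Fn1 (0.997, not called) were the lowest with a mean of 50 counts or more. Large chromatin enzymes (CHD, SWI/SNF and INO80 remodellers, histone methyltransferases and acetyltransferases) were called higher in 19 of 31 and lower in 0 (median 1.26), from the acetyltransferase Crebbp (2.74) and the methyltransferase Kmt2d (2.68) to Ino80 (0.11) and Smarcal1 (-0.18). Of 53 motor heavy chains (median 0.56) 12 were called higher (22.6%, against 17.3% of all genes), with Dnah10 (2.43) and Myo9a (2.04) highest. Only 1, the neuronal kinesin Kif5a (-2.06), was called lower (1.89%, against 25.6%), and Myo19 (-0.93) was not called. Of 187 solute carriers 66 were called higher and 18 lower (median 0.63). The amino acid transporters Slc38a4 (2.58) and Slc7a5 (2.44) were the highest with a mean of 50 counts or more, and the mitochondrial carriers Slc25a37 (-3.77) and Slc25a38 (-3.15) were lowest.

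Messages known for translational control were on both sides. Of 11 messages with inhibitory upstream open reading frames 6 were called lower and 0 higher (median -1.14), with the stress factors Ddit3 (-3.09) and Ppp1r15a (-2.27) lowest and Ppp1r15b (0.75) and Ibtk (0.34) highest. Atf4, the transcription factor of the integrated stress response (chr15:80255184-80257541), had 400.2, 537 and 436 CPM in KO monosomes, 226, 229 and 227 CPM in low polysomes and 99.2, 98.8 and 119.7 CPM in high polysomes. Its level fell at each step without overlap, to a log2 ratio of -2.10 ± 0.11. Polyamine pathway messages were called lower in 5 of 10 (median -1.05), with the antizymes Oaz1 (-2.78) and Oaz2 (-2.01), which are made by frameshifting, and Amd1 (-2.60, on 0.230 to 10.5 CPM) among them. Odc1 (-0.53) and Azin1 (-0.46) were not called, nor were Srm (0.36) and Sms (0.16). Of 6 iron-regulated messages 2 were called higher, the transferrin receptor Tfrc (1.25) among them, and the ferritin light chain Ftl1 (-1.92, on at most 9.32 CPM) lower, while Fth1 (-0.32) and Slc11a2 (0.68) were not called. Actb, the cytoplasmic actin, was at 2.20 ± 0.10.

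Regulators of the stem cell state and of the cell cycle lay on both sides. Of all genes 17.3% were called higher and 25.6% lower. Naive pluripotency factors had 4 of 15 genes called higher (26.7%) and 0 lower. Nr0b1 (2.01) and Tfcp2l1 (1.71) were highest and Prdm14 (-0.89) and Zfp42 (-0.73) lowest by the named-gene rule. The list median of 0.19 was -0.06 with total counts. Sox2 had 655, 710.2 and 666 CPM in monosomes and 663, 699 and 698 CPM in high polysomes, so its fractions overlapped (0.02 ± 0.10), and Nanog was at 0.30 ± 0.11. Cyclins and their kinases were called higher in 5 of 15 (33.3%) and lower in 1 (6.67%), from Ccne1 (1.72) and Ccnd2 (1.36) to Cdk2 (-0.81) and Cdk5 (-1.44). Among 14 inhibitors of the G1 to S transition and other known targets of stem cell microRNAs, 1 was called higher, the pocket protein Rbl1 (1.26), and 3 lower, among them Btg1 (-1.80) and Mbd2 (-1.18), while Rhoc was at 0.61. The replication machinery had 8 of 45 called higher (17.8%, against 17.3% of all genes), with Rpa1 (1.61) and Lig1 (1.52), and 6 lower (13.3%, against 25.6%), with the small subunits Pole4 (-2.43) and Rpa3 (-1.70). Zinc finger genes of the Zfp series were called lower in 108 of 277 (39.0%) and higher in 6 (median -0.72), from Zfp57 (-3.63) and Zfp692 (-3.21) to Zfp609 (1.32) and Zfp318 (1.18). SR proteins and hnRNPs, which act in splicing, had 7 of 30 called higher (23.3%), with Hnrnpl (1.33) and Hnrnpd (1.29). They had 3 called lower (10%), with Srsf5 (-2.16) and Srsf10 (-1.34). Of 13 Argonaute, TNRC6 and other microRNA pathway messages 5 were called higher, with Ago2 (1.89) and Dicer1 (1.58), and 2 lower, Dgcr8 being one, and the helicase Ddx6 was at 0.27 ± 0.11.

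**Figure D4:**
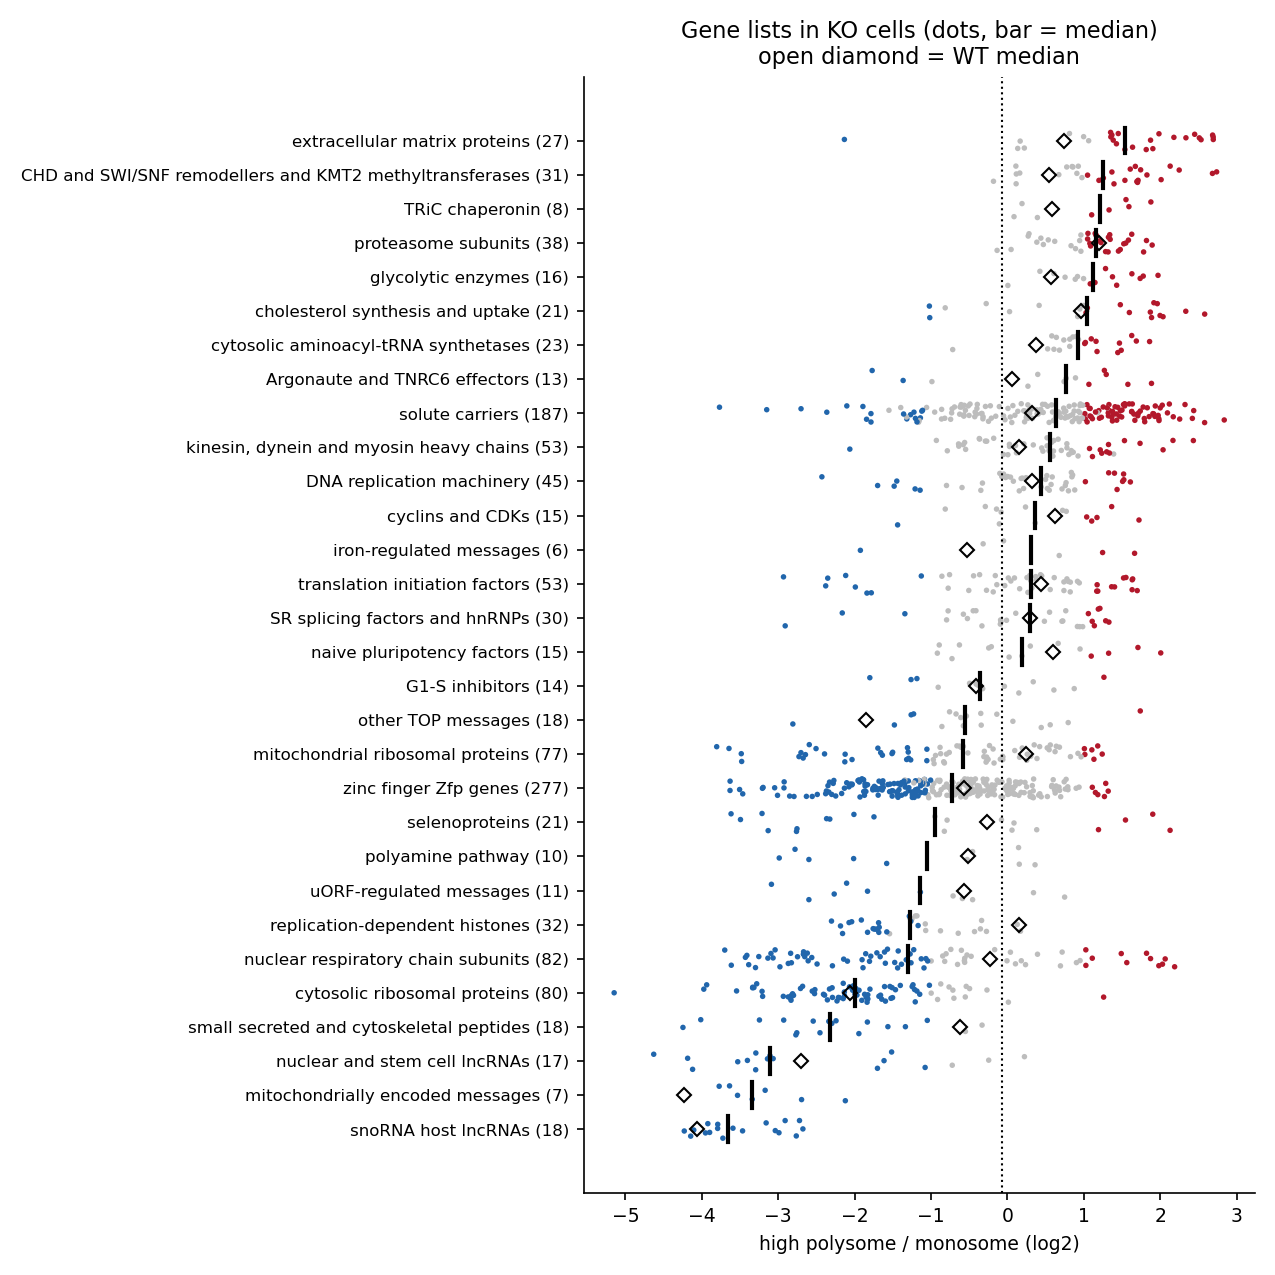
Log2 ratio of high polysome to monosome in KO cells for each gene (dot) of each list, with the number tested in brackets. Red dots were called higher, blue dots lower and grey dots not called, black bars are KO medians, open diamonds are WT medians and the dotted line is the KO median of all genes (-0.08). Medians run from -3.66 for snoRNA hosts to 1.54 for extracellular matrix proteins.

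The low polysome libraries divide the comparison in 2 steps, which share libraries with it and with each other. From monosome to low polysome 2167 genes (16.9%) were called, 828 higher (6.44%) and 1339 lower (10.4%), and from low to high polysome 3356 genes (26.1%) were called, 1176 higher (9.15%) and 2180 lower (17%). The median of the shortest bin of coding sequences was -0.40 over the first step and -1.29 over the second. For the longest bin it was 0.63 over the first and 0.26 over the second. Respiratory chain subunits had medians of -0.06 and -1.27, histones 0.13 and -1.51, TRiC -0.05 and 1.25, and chromatin enzymes 1.05 and 0.32. The TOP messages other than ribosomal proteins had -0.82 and 0.32, and at Eef1a1 the steps were -1.47 and 0.86. Along the gradient Bahcc1 had its larger step first (2.91, then 0.79), Dgcr8 had its larger step second (-0.10, then -1.67), and Malat1 fell by 2.40 and then by 2.23 on the log2 scale.

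The WT gradients were used to ask which of these levels differed by genotype. In WT 3862 genes (30.1%) were called, 1347 higher (10.5%) and 2515 lower (19.6%), and the middle 50% of genes spanned 2.70-fold. KO and WT levels had a Spearman rho of 0.755 across the 12851 genes, from libraries they do not share. Both genotypes called 790 genes higher and 1970 genes lower. In 7 genes the calls were opposite, and these were picked after their values were seen. Ankrd52 and Slc23a4 were higher in KO and lower in WT, and Pclaf, Gm9800, Txnl4b, Car8 and Cdkn2b were lower in KO and higher in WT. Of the 1433 genes called higher in KO and not in WT, 454 passed the test of the difference itself, as did 547 of the 1310 called lower in KO only.

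By that test, the interaction of genotype and fraction, 1975 genes (15.4%) differed, 848 with a higher (6.6%) and 1127 with a lower (8.77%) translation level in KO. With total counts the split was 293 higher and 2087 lower, as that scaling moved the median difference of all genes from 0.02 to -0.31, so the direction counts rest on the TMM factors. Atf4 had the difference with the lowest adjusted p of the named genes. Its WT levels were 913, 959 and 984 CPM in monosomes and 1042, 971 and 1006 CPM in high polysomes, a log2 ratio of 0.08, which overlap between fractions, unlike the KO levels above. The difference was -2.19 ± 0.15 (adjusted p = 8.49e-15), and -2.51 with total counts. Pou5f1, the pluripotency factor OCT4, fell in KO from 45.0, 31.8 and 40.7 CPM on the monosome to 26.8, 29.2 and 20.4 CPM on high polysomes, which missed the fold threshold, whereas it had monosome and high polysome levels of 33.5, 21.9 and 38.02 CPM and 73.7, 71.4 and 56.4 CPM in WT. The order of the fractions was thus opposite in the genotypes, at -0.63 in KO and 1.11 in WT, a difference of -1.74 (adjusted p = 2.85e-06). These levels of Pou5f1 are low, with a mean of 39.2 CPM in KO monosomes against 677 CPM for Sox2. Whether the dropping of reads that mapped to more than 1 place lowered its count was not tested.

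By the largest differences among genes called in KO, Coq10a, which acts on coenzyme Q, fell in KO from 45.0, 42.3 and 50.5 CPM on the monosome to 5.29, 4.66 and 5.97 CPM on high polysomes, against 29.5, 29.7 and 28.3 CPM and 27.7, 15.9 and 21.7 CPM in WT. Its difference was -2.64, followed by Arfip2 (-2.61), an adaptor of small GTPases, Paip2b (-2.37), an inhibitor of poly(A) binding protein, and Hist1h4d (-2.35). On the other side stood the membrane protein Dner (2.38) and the glutamate receptor Grm4 (2.33), whose WT values rest on few reads. Loxl4, a matrix cross-linking oxidase with a KO log2 ratio of 2.45, was picked too. Its WT monosome libraries had 2, 1 and 1 reads, so its WT ratio and its difference are not given. Psmb8, an immunoproteasome subunit with a KO log2 ratio of 1.48, was also picked by this rule, but its 6 WT high polysome and monosome libraries had 0 reads, so it has no WT ratio.

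Several lists held many genes that passed this test in 1 direction. Of all genes 6.6% were higher and 8.77% lower in KO by it. The TOP messages other than ribosomal proteins had a higher level in KO in 11 of 18 and a lower one in 0, and their median was -1.85 in WT against -0.56 in KO. Eef2 had a KO monosome level of 2138, 2304 and 2326 CPM and 6193, 6630 and 7120 CPM in WT monosomes, while its high polysome levels overlapped, with 960.1, 772 and 1119 CPM in KO and 963, 723 and 918 CPM in WT. Its difference was 1.68 (adjusted p = 2.35e-12), and those of Eef1a1 and Pabpc1 were 1.63 and 1.44. Ribosomal proteins had 4 higher and 8 lower of 80, close to the shares of all genes, with medians of -1.99 in KO and -2.06 in WT. Respiratory chain subunits were lower in 29 of 82 (median -1.30 in KO and -0.22 in WT), mitochondrial ribosomal proteins in 24 of 77 (-0.58 and 0.24), histones in 15 of 32 (-1.28 and 0.16) and the thymosin, S100 and cystatin group in 12 of 18 (-2.32 and -0.62), with 1 respiratory chain gene higher and 0 in the other groups. Matrix proteins were higher in 10 of 27 and lower in 1, chromatin enzymes in 10 of 31 and 0, glycolytic enzymes in 6 of 16 and 0, and solute carriers in 29 of 187 and 7. The KO minus WT difference also followed coding length. In the shortest bin 459 of 1177 genes were lower and 5 higher (median -0.92). In the longest 229 were higher and 5 lower (0.63). Median coding length was 420 nt for respiratory chain subunits, 5010 nt for matrix proteins and 6735 nt for chromatin enzymes. Ribosomal proteins were also short (451.5 nt) but had a median difference of 0.13. Whether any list differed beyond what its coding length gives was not tested. The KO gradients and WT gradients were processed as separate samples, and no label gives the run or day of either, so genotype and any such batch cannot be told apart.

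**Figure D5:**
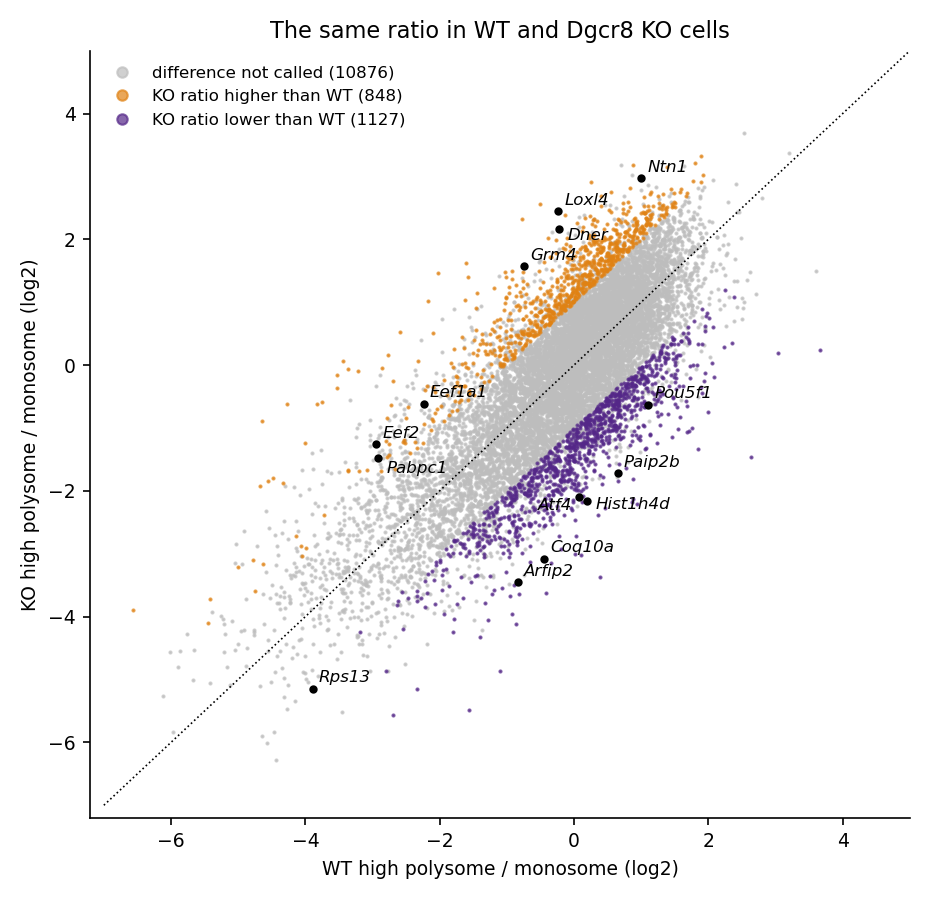
Log2 ratio of high polysome to monosome in KO cells (vertical axis) against WT cells (horizontal axis), 1 point per tested gene, with equal values on the dotted line. Orange points are the 848 genes with a higher ratio in KO and purple points the 1127 with a lower one. Atf4 and Pou5f1 lie below the line, and Eef2, Pabpc1 and Eef1a1 above it.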

How the data were processed

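Libraries were made with the QuantSeq 3′ FWD kit from RNA of gradient fractions. The authors trimmed reads with Cutadapt 1.14, aligned them to mm10 with STAR 2.5.3a, kept reads of a single locus and deposited raw read counts per gene from featureCounts 1.5.3 (GENCODE release 14 without rRNA). The table held 51467 genes. Classes, coding lengths and coordinates came from GENCODE release 21 (GRCm38), which matched 51274 genes, since release 14 was not used here.

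Genes with 3 CPM in at least 3 libraries were tested. Counts of all 18 libraries were scaled by TMM (edgeR 4.0.16) and fitted with limma-voom (limma 3.58.1, R 4.3.3) with the gradient as a block, since the protocol in the labels states that the 3 fractions were collected from each sample. That a replicate number marks 1 gradient was taken from the titles. Deviations of same-numbered KO monosome and high polysome libraries from their group means correlated at 0.107, 0.037 and 0.033, and replicate 2 correlated more with another number (0.076). CPM values are TMM-scaled, and ± is the SE of the fit. The scripts were tested on simulated data with planted log2 changes of 1.5 and 2. For the KO ratio 83% and 92% were recovered, and for the difference from WT 72% and 78%. Only 100 of 12851 genes were changed at each size, so the simulation cannot test the scaling under changes as wide as those seen here. Alternatives were DESeq2 1.42.0, edgeR's quasi-likelihood test, other scalings, filters and left-out replicates.

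Named genes were the 12 highest and 12 lowest called protein-coding genes with a mean of at least 50 counts and no overlap between fractions, 3 and 3 of other classes, the 2 highest and 2 lowest of each list with that mean, a fixed set of known genes and 4 and 4 by difference from WT. The compared fractions, gene lists and named sets were chosen with earlier results of these data known. Total counts of WT libraries ran from 1151649 to 3521636. Some genes that this rule picks are not reported here.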

Additional observations from a re-analysis of the deposited data

Results flagged for a closer look

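The translation level of 55 named genes differed between KO and WT by the test of the interaction of genotype and fraction (limma-voom, adjusted p under 0.05 and a log2 difference beyond 1), with 22 lower and 33 higher in KO. Values are KO minus WT differences in the log2 ratio of high polysome to monosome.

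The genes with a lower level in KO were Coq10a (-2.64), Arfip2 (-2.61), Paip2b (-2.37), Hist1h4d (-2.35), Atf4 (-2.19), Dok2 (-2.02), Hist1h1c (-1.75), Pou5f1 (-1.74), Usmg5 (-1.65), Mrpl54 (-1.61), Insig1 (-1.38), Cdk5 (-1.35), Rpa3 (-1.35), Rps13 (-1.25), Cox7c (-1.23), S100a11 (-1.10), Eif1 (-1.09), Eef1e1 (-1.09), Btg1 (-1.08), Tmsb4x (-1.05), Cst3 (-1.04), Azin1 (-1.03).

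Genes with a higher level in KO included Lig1 (1.003), Col9a2 (1.02), Atp6ap2 (1.02), Rpa1 (1.03), Slc38a4 (1.07), Gas5 (1.07), Zfp609 (1.10), Lefty2 (1.10), Eno3 (1.11), Piezo1 (1.16), Hnrnpl (1.18), Eef1d (1.23), Crebbp (1.25), Srebf2 (1.32), Selenoi (1.33), Lamb2 (1.35), Snhg11 (1.35), Eif3l (1.35), Myo9a (1.37), Epb41l4aos (1.41), Igf1r (1.42), Pabpc1 (1.44), Col18a1 (1.45), Eef1a1 (1.63), Eef2 (1.68), Pkd1 (1.77), Psmb10 (1.90), Ntn1 (1.97), Grm4 (2.33), Dner (2.38), Loxl4 (2.68).

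In 54 of the 55 genes the ratios of the 3 KO gradients all lay on one side of those of the 3 WT gradients, and Rpa3 was the exception. The genes were listed for a called difference in the same libraries, so this count is not separate evidence. Under every alternative run 29 of the 55 genes passed the test. With libraries scaled by total counts 16 did not pass, all of them higher in KO, among them Lig1, Col9a2, Atp6ap2, Rpa1, Slc38a4, Gas5, Zfp609, Lefty2, Eno3, Piezo1, Hnrnpl, Eef1d, Crebbp, Srebf2, Myo9a. The cause of these differences was not tested.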

How the results depend on the processing

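The count of genes called between high polysome and monosome in KO was 5510 and stayed between 4289 and 7187 under the other scalings, filters and tools. It was 8868 (4217 higher) without the fold threshold. Leaving out 1 KO gradient gave 5203 to 5460 calls. Without the replicate block it was 5520, and the difference between genotypes had 1940 calls in place of 1975. The block changed no list or count by over 1.5 times except the inhibitors of the G1 to S transition, with 2 called higher in place of 1. The difference between genotypes had 4007 calls (1918 higher, 2089 lower) without the fold threshold, 1707 to 2075 with 1 gradient left out, and 293 higher and 2087 lower with total counts.

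The median of lncRNAs minus that of protein-coding genes was -2.76 and moved to -2.85 without the block, -3.14 with a 10 CPM filter, -0.75 with every gene that had a count, -2.89 with edgeR and -2.98 with DESeq2, with a range of -2.84 to -2.77 over the left-out gradients. The Spearman coefficient with coding length was 0.413 to 0.486 under every alternative run.

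Named genes near 0 changed sign without a call, with total counts Tcp1 (-0.16), Cct2 (-0.057), Sms (-0.092), Kcnq1ot1 (-0.023), Ino80 (-0.135), Eno3 (-0.24), Sox2 (-0.23), with the 10 CPM filter Tcp1 (-0.024), Eno3 (-0.105), Sox2 (-0.089), without the replicate block Eno3 (-0.034), with edgeR Eno3 (-0.016), with DESeq2 Eno3 (-0.007). With 1 gradient left out the values ran for Tcp1 from -0.021 to 0.15, Kcnq1ot1 from -0.046 to 0.43, Smarcal1 from -0.30 to 0.016, Ino80 from -0.15 to 0.37, Eno3 from -0.28 to 0.20, Sox2 from -0.003 to 0.045. Calls ended in at least 1 alternative for Mrps5, Mrps27, Tfrc, Rian, Zfp318, Mvk and Insig1, and began for Prdm14, Cdk2, Myo19, Fn1 and Gapdh. Without KO replicate 3 Mvk was at -0.74. The cause was not tested. Genes with few monosome reads are limited by depth.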
